A study of Homo sapiens with 20 samples.

Results

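The genes described here are 43 cell cycle genes, 18 that act around the entry into and passage through S phase (G1/S) and 25 that act in G2 and mitosis (G2/M). They were taken by symbol from 26485 gene rows, and each of the 43 had a row in both deposited tables. All 43 passed the filter on low values (a mean of at least 0.5 RPM, reads per 1000000 reads of the table's rows), among 15958 genes in all. The question was whether their RNA in the nucleus was already lower after 3 hours of Nutlin-3a, with libraries of the same replicate number compared with each other.

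In G1, the pocket proteins RB1, RBL1 (p107) and RBL2 (p130) hold E2F transcription factors at the promoters of these genes, and cyclin-dependent kinases release them. When p53 is active it induces CDKN1A (p21), which inhibits those kinases, and the DREAM complex (RBL2 or RBL1, an E2F with its DP partner, and the MuvB core) assembles on the same promoters and holds them down. G1/S promoters are known for E2F sites, and G2/M promoters for the cell cycle genes homology region (CHR) together with CCAAT boxes, which NF-Y binds.

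All groups were HCT116 cells, from a human colorectal carcinoma that kept normal p53, electroporated either with 10 µM of a stapled peptide designed against the contact between p53 and the Mediator coactivator or with water. Peptide cells got another 200 nM in their medium afterwards. For the next 3 hours the cells stood in 0.1% DMSO, either with 10 µM Nutlin-3a, a drug that keeps MDM2 off p53, or with no drug. The groups were Nutlin with peptide, Nutlin with water, DMSO with peptide and DMSO with water, each with 2 libraries in experiment 1 and 3 in experiment 2, so 5 per group and 20 in all, and nuclear RNA was sequenced after ribosomal RNA depletion. No label says whether same-numbered libraries came from separate cultures, so p-values measure the spread between these libraries, which may be technical.

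The promoters of 4 of the genes that fell with Nutlin in experiment 2 are shown as examples. Not each of the 4 windows holds every searched word that stands for an element known in its phase. Other forms of these elements were not searched for. CDC25A encodes a phosphatase that activates cyclin-dependent kinases, and MCM2 a subunit of the replicative helicase. CCNB1 encodes cyclin B1 and PLK1 a mitotic kinase. Each sequence is the RefSeq window (GRCh38.p14) of 250 bases before to 50 bases after the start, read 5′ to 3′ along the gene, from chr3:48188368-48188667 (minus strand), chr3:127598161-127598460 (plus), chr5:69166900-69167199 (plus) and chr16:23678639-23678938 (plus). Capitals mark a CCAAT box (CCAAT or, on the other strand, ATTGG), the CHR word TTTGAA (other strand TTCAAA) and the E2F words TTTCCCGC, TTTGGCGC and TTTCGCGC with their other strands GCGGGAAA, GCGCCAAA and GCGCGAAA.
CDC25A: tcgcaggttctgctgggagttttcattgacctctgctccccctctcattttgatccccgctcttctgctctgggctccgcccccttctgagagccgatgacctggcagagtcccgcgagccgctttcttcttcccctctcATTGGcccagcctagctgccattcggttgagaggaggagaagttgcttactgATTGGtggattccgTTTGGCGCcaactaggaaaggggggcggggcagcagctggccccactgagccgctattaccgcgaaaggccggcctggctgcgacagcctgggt
MCM2: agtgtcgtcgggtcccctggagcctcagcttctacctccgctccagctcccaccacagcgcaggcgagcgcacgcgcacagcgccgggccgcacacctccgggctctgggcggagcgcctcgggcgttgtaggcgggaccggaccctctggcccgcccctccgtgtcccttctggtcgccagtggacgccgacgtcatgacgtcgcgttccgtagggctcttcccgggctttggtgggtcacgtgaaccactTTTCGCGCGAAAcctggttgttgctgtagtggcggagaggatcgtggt
CCNB1: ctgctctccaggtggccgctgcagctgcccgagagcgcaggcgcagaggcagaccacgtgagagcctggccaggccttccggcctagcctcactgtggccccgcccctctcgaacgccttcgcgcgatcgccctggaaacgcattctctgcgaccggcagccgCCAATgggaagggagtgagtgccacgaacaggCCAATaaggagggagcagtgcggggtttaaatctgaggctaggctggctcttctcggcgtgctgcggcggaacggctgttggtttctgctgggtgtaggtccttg
PLK1: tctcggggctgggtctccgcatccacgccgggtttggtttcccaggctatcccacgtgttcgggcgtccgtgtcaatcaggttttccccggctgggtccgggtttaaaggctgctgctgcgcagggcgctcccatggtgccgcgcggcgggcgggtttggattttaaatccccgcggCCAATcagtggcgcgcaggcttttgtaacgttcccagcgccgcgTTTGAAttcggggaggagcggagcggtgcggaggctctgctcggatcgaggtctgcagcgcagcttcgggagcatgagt

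The CDC25A window held 2 CCAAT boxes and 1 E2F word, and the MCM2 window held 2 E2F words that overlap each other on opposite strands. The CCNB1 window held 2 CCAAT boxes and no TTTGAA, and the PLK1 window held 1 CCAAT box and 1 TTTGAA. The windows of RRM2 (G1/S) and KIF20A (G2/M), which also fell, are not shown. RRM2 had 3 CCAAT boxes and no E2F word, and KIF20A had 2 CCAAT boxes and no TTTGAA. A RefSeq window whose start lay within 500 bases of the start of the gene's row was found for 32 of the 43 genes and for 8248 of the genes tested. An E2F word stood in 9 of 14 G1/S windows and 2 of 18 G2/M windows, against 4.56% of the 8248 windows. TTTGAA stood in 1 of 14 G1/S and 13 of 18 G2/M windows, against 9.97% of all windows. A CCAAT box stood in 8 of 14 G1/S and 15 of 18 G2/M windows, against 37.1% of all. Both a CCAAT box and TTTGAA stood in 1 of 14 G1/S and 11 of 18 G2/M windows, against 4.38% of all. These are letter matches on both strands and do not show that a factor was bound, nor does a missing word show that an element is absent.

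The libraries of experiment 1 had 36717795 to 63896604 reads in gene rows, and those of experiment 2 had 18787172 to 47407746. The member with the fewest reads had 242 to 466 in the libraries of experiment 1 and 80 to 518 in those of experiment 2. Levels are given as scaled RPM, the RPM after a further scaling between libraries. Fewer cells in a phase and less RNA per cell cannot be told apart in such bulk libraries. The epithelial markers EPCAM, KRT8, KRT18 and CDH1 summed to at least 1481 scaled RPM in each library. The sums were at most 0.833 for 4 blood markers and 1.30 for 3 fibroblast and endothelial markers. Single epithelial markers differed between numbers of experiment 2. In DMSO with water, numbers 1, 2 and 3 had 82.2, 46.8 and 11.1 for CDH1 and 1301, 812 and 368 for KRT18. EPCAM had 325, 324 and 313 there. In experiment 1, 16.9% to 26.3% of the reads fell in rows of structural RNA, against 1.67% to 5.29% for experiment 2. The library with 26.3%, Nutlin water number 2 of experiment 1, also stood apart from its partner, with a correlation of 0.955 across genes, against 0.992 to 0.997 for the partners of the other conditions of that experiment.

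The p53 targets showed how far each pair of libraries responded. In experiment 1, CDKN1A had 42.0 and 48.4 scaled RPM with Nutlin and peptide, against 40.4 and 42.6 with DMSO and peptide. In water it had 119 and 176 with Nutlin, against 36.6 and 37.8 with DMSO. In experiment 2 it had 80.8, 97.0 and 45.9 with Nutlin and peptide (numbers 1, 2 and 3), against 72.0, 55.3 and 50.02 with DMSO and peptide. In water it had 88.9, 103 and 49.6 with Nutlin, against 63.1, 45.8 and 40.4 with DMSO. So CDKN1A was higher with Nutlin in each of the 5 water pairs. The log2 difference was 1.69 and 2.20 in the water pairs of experiment 1 and 0.49, 1.16 and 0.29 in those of experiment 2. In peptide it was 0.05 and 0.18 in experiment 1, and 0.17, 0.81 and -0.12 in experiment 2. MDM2 was also higher with Nutlin in both water pairs of experiment 1, with 471 and 256 scaled RPM against 150.4 and 142 with DMSO. In peptide it had 174 and 147 with Nutlin against 163 and 153, so it was slightly lower in number 2.

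The largest differences among the 43 genes were between replicate numbers of experiment 2 and not between treatments. In DMSO with water, 42 of the 43 genes were over 2-fold higher in number 2 than in number 1, against 8.20% of all genes tested. The median difference of the 43 genes between numbers 2 and 1 was 1.87 to 2.19 on the log2 scale in the 4 conditions, while that of all genes was 0.04 to 0.07. KIF20A, a mitotic kinesin, had 14.9, 110.2 and 51.0 scaled RPM in the DMSO water libraries numbered 1, 2 and 3. Number 3 lay between, with a median of 0.98 to 1.28 above number 1 and 0.86 to 1.09 below number 2. In experiment 1 the median difference between numbers 2 and 1 was -0.17 to 0.01. What differed between the numbers is not given in the labels, and its part in the results was not tested. Groups pooled over numbers therefore overlapped widely in experiment 2.

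**Figure D1:**
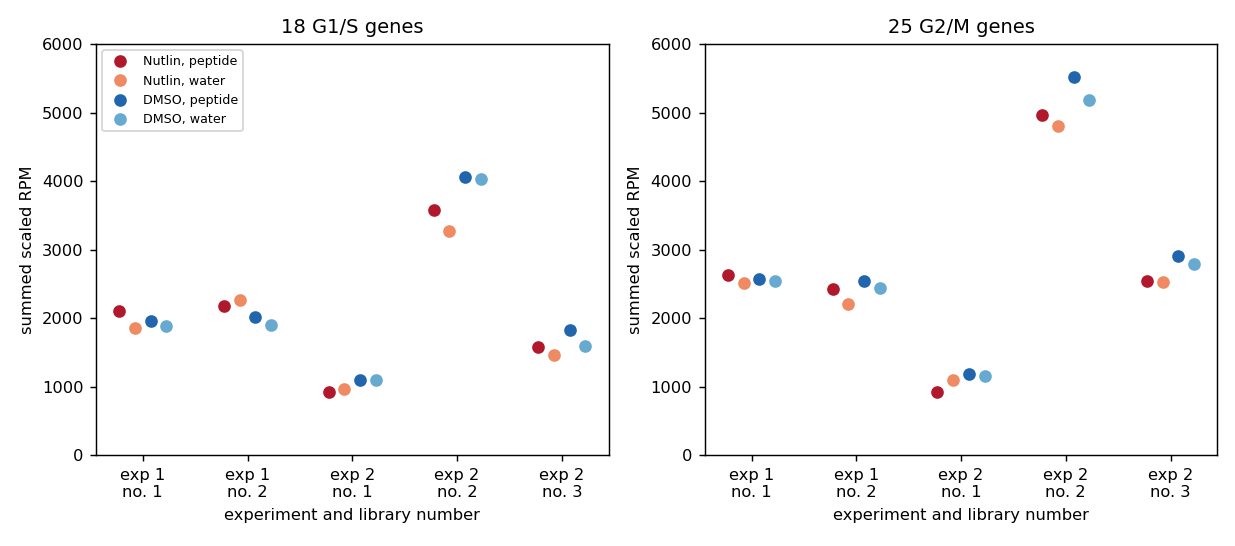
Summed scaled RPM of the 18 G1/S genes (left) and the 25 G2/M genes (right), one point per library, by experiment and library number. In experiment 2 the sums ran from 921 to 4055 for G1/S genes and from 923 to 5525 for G2/M genes, with number 1 lowest, number 3 between and number 2 highest in every condition.

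Mean levels per kb of the row's span are given for the DMSO water libraries only. MCM7, another helicase subunit, had the highest of the members in experiment 2, at 56.0 scaled RPM per kb, and 34.8 in experiment 1. CDC20, an activator of the anaphase-promoting complex, had 38.2 in experiment 2 and 34.6 in experiment 1. CDC25C, the phosphatase that activates CDK1 at mitotic entry, had the lowest, at 0.286 in experiment 2 and 0.338 in experiment 1. Spans ran from 3.035 kb for AURKB, the kinase of the chromosomal passenger complex, to 92.514 kb for CENPE, a kinetochore motor.

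Over both experiments, no member passed limma's test for Nutlin against DMSO, although most lay slightly lower. With a term for experiment and Benjamini-Hochberg adjustment over all genes, 0 of 43 members were called in water, in peptide or averaged over both, and 0% of all genes in each (for water, 98 genes were at an unadjusted p under 0.05, 68 higher and 30 lower; for peptide 18 higher and 7 lower; averaged, 53 higher and 33 lower). The median log2 change of the members was -0.11 in peptide, with 42 of 43 below 0, and -0.12 in water, with 39 of 43 below 0. The medians of all genes were -0.02 and -0.03, with 58.2% and 57.5% of them below 0. G1/S genes had a median of -0.08 in peptide and -0.09 in water, and G2/M genes -0.14 in peptide and -0.12 in water. In this fit the standard errors of the members ran from 0.22 to 0.69 in water, where the lowest change was -0.30. Leaving out 1 library at a time turned the direction of both medians, which ran from -0.38 to 0.20 in peptide and from -0.38 to 0.17 in water.

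With the replicate number as a block, standard errors in water were 0.08 to 0.16, and the call remained 0 of 43. At an unadjusted p under 0.05, 5 members were lower in water against 4.39% of all genes, 1 in peptide against 0.702%, and 9 averaged over both against 4.75%. The 5 in water were CDC25A (log2 -0.22 ± 0.09, SE), RRM1 (-0.21 ± 0.10), BUB1B (-0.24 ± 0.10), TOP2A (-0.26 ± 0.11) and CCNB1 (-0.23 ± 0.10), each with an adjusted p of 0.645 to 0.647. RRM1 is the large subunit of ribonucleotide reductase, BUB1B a spindle checkpoint protein and TOP2A the topoisomerase that decatenates chromosomes. Counted by pairs, 8 members were lower with Nutlin in 5 of 5 water pairs (4.17% of all genes were) and 6 in 5 of 5 peptide pairs (3.41%), with TOP2A in both counts.

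In peptide, the pairs of the 2 experiments had medians of opposite sign. In water all 5 medians over the 43 members were below 0, but not all 5 medians of the G1/S genes. In peptide, the median change of the members was 0.11 and 0.06 in the pairs of experiment 1, and -0.29, -0.17 and -0.19 in those of experiment 2. In water it was -0.02 and -0.13 in experiment 1, beside -0.01 and -0.08 for all genes. There the pair numbered 2 had a median of 0.15 for G1/S genes, 7 of 18 of them lower, and -0.31 for G2/M genes. The water pairs of experiment 2 had medians of -0.09, -0.26 and -0.11, beside 0.01, -0.02 and -0.004 for all genes. All 6 pairs of experiment 2 thus had a median below 0, for G1/S genes (-0.11 to -0.29) and for G2/M genes (-0.04 to -0.35) alike. Of the 43 members, 23 were lower with Nutlin in 6 of 6 pairs of experiment 2, 12 of 18 G1/S and 11 of 25 G2/M genes, against 9.54% of all genes. In experiment 1, 3 of 43 were lower in 4 of 4 pairs, against 11.0% of all genes. Those 3 were TOP2A, CDC45, which loads with the helicase at origins, and KIF23, a kinesin of the central spindle. Within experiment 2, pairs that share a number share the spread of that number, so the 6 pairs are not 6 independent tests.

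**Figure D2:**
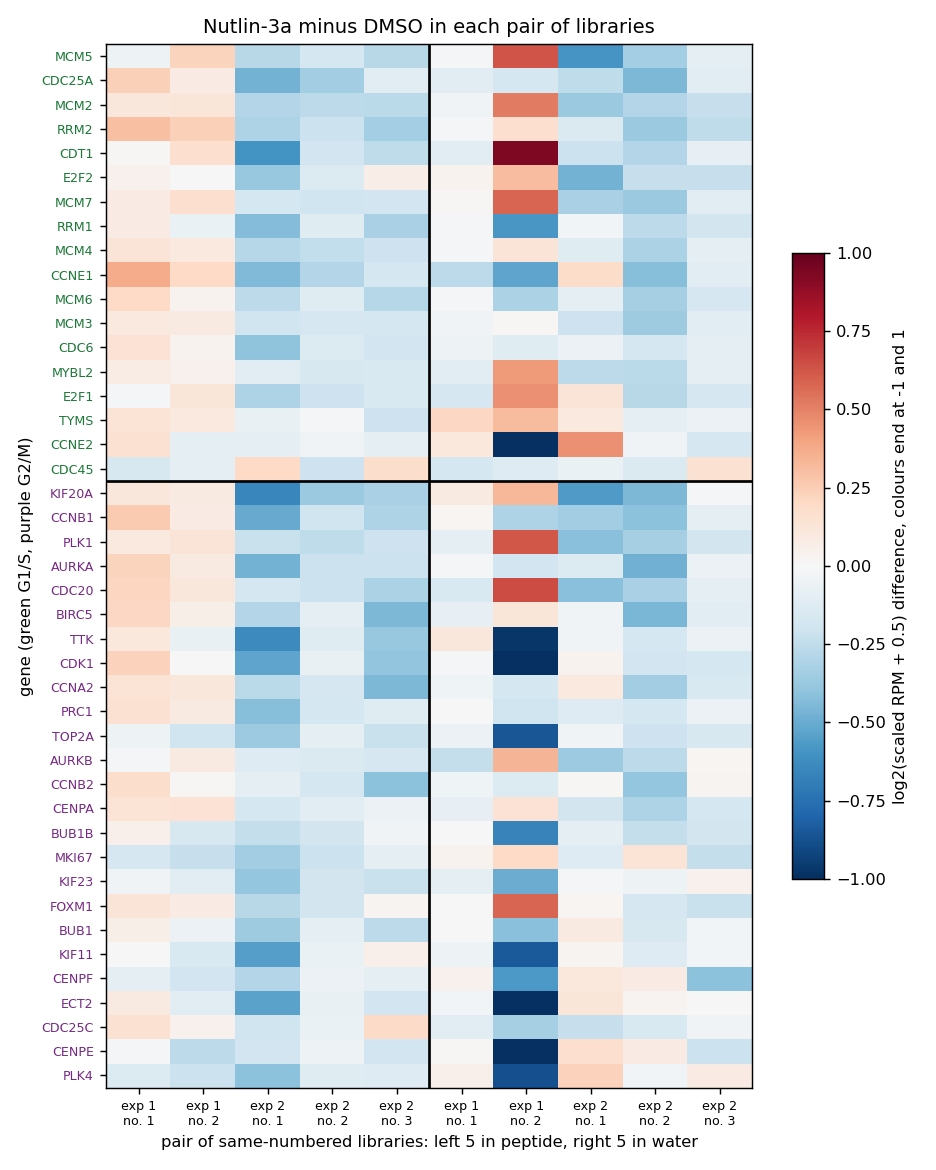
Log2 difference, Nutlin minus DMSO, of each of the 43 genes (rows) in each pair of same-numbered libraries (columns, peptide left and water right), blue where lower with Nutlin and red where higher. The 3 pairs of experiment 2 are mostly blue on both sides, while the peptide pairs of experiment 1 are mostly red and the number 2 water pair of experiment 1 holds both strong red and strong blue.

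Fitted on experiment 2 alone with the replicate block, and averaged over peptide and water, 20 of the 43 members fell with Nutlin and 0 rose. Of all 15731 genes tested in that fit, 7.41% were called lower and 4.07% higher. This fit is an alternative to the test over both experiments, and it is given at length because it was seen to hold calls. The median log2 change was -0.18 for the members, with 41 of 43 below 0, and -0.01 for all genes. Of the 18 G1/S genes 13 fell, and of the 25 G2/M genes 7. The called changes ran from -0.17 to -0.40 on the log2 scale, falls of 11.2% to 24.0%, with adjusted p of 0.0114 to 0.0486. At an unadjusted p under 0.05, 34 members were lower, against 17.7% of all genes. Taken singly, the arms gave 0 calls in members and in 0% of all genes, with 30 members lower at an unadjusted p under 0.05 in peptide (10.6% of all genes) and 17 in water (11.6%).

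**Figure D3:**
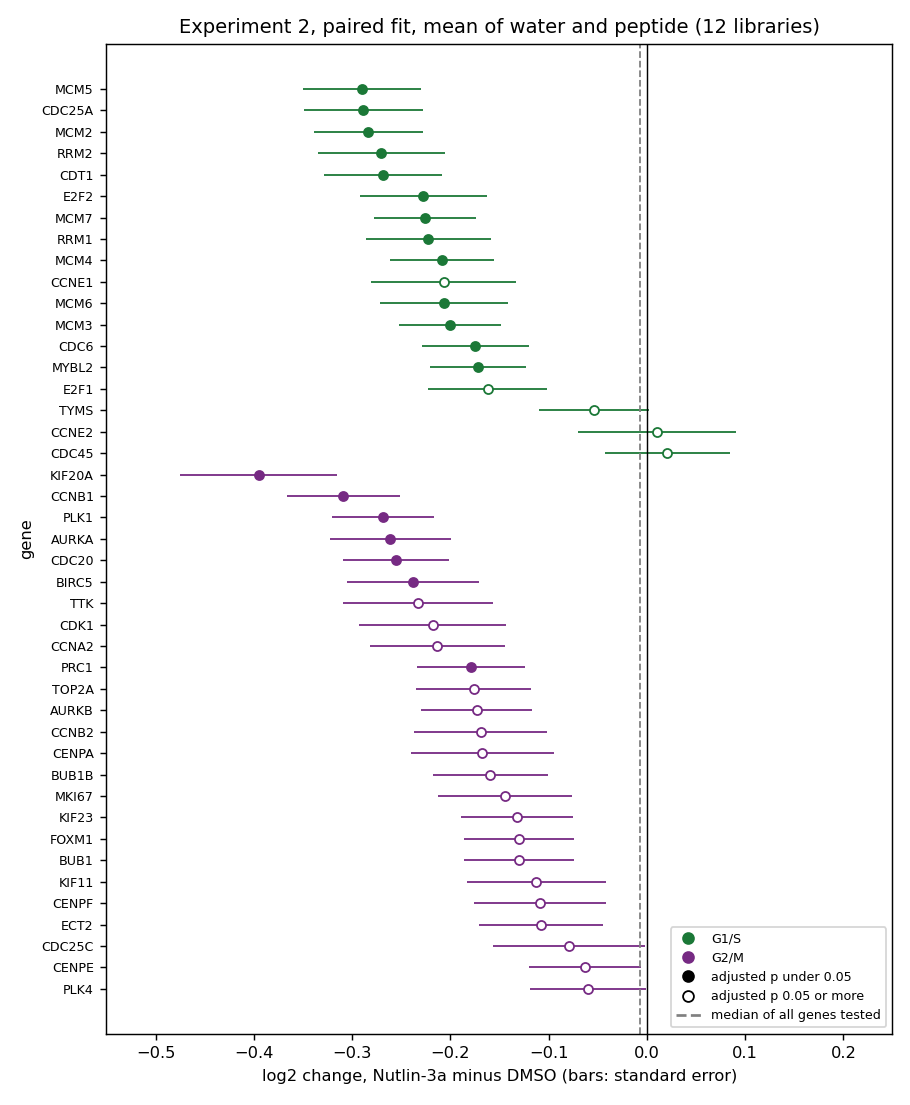
Log2 change with Nutlin, averaged over peptide and water, of the 43 genes in the paired fit of experiment 2 (12 libraries), with standard errors. Filled points passed the adjusted threshold. G1/S genes are filled down to MYBL2 apart from CCNE1, while 7 of 25 G2/M genes are filled.

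The call rested on single libraries, and the size of the change moved with the scaling. Without scaling beyond RPM, 7 members were called and the median was -0.0929, where that of all genes was 0.0710. With scaling, the call went to 0 members without DMSO water number 1 and without DMSO water number 2, to 2 without Nutlin water number 2, to 9 without Nutlin peptide number 1 and to 13 without Nutlin peptide number 3, while the median change stayed between -0.16 and -0.21 without any 1 of the 12 libraries. It was also 0 without the block, and 0 without the filter on low values. Calls over all genes in these alternatives are not given here, so the counts do not show whether members lost calls more than other genes. Epithelial markers moved too: KRT8 fell by 0.33 and KRT18 by 0.28 on the log2 scale in the same fit, with adjusted p of 0.0169 and 0.0194, while EPCAM (0.08) and CDH1 (0.08) did not pass, and the part of this in the member changes was not tested.

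Among the regulators of the G1/S switch, 3 of 6 fell in that fit. For CDC25A, the Nutlin peptide libraries numbered 1, 2 and 3 had 32.6, 84.9 and 52.8 scaled RPM, against 45.5, 108 and 56.9 with DMSO and peptide. In water CDC25A had 35.4, 81.1 and 48.6 with Nutlin, against 42.2, 111 and 52.7 with DMSO. Each Nutlin library lay below its partner, and the groups overlapped because of the numbers. The log2 change was -0.29 ± 0.06 (SE), with an adjusted p of 0.0150 by limma. MYBL2 (B-Myb, which joins MuvB in S phase) fell by 0.17 ± 0.05 (adjusted p 0.0339) and E2F2, an activator E2F, by 0.23 ± 0.06 (0.0341). E2F1 had -0.16 ± 0.06 (adjusted p 0.0871). The S phase cyclins CCNE1 and CCNE2 had -0.21 ± 0.07 (0.0745) and 0.01 ± 0.08 (0.948).

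Of the 9 replication licensing and helicase genes, 8 fell. MCM2 had 68.7, 272 and 111 scaled RPM with Nutlin and peptide, against 84.4, 326 and 133 with DMSO and peptide. In water MCM2 had 68.8, 251 and 93.4 with Nutlin, against 89.0, 307 and 109.9 with DMSO. All 6 Nutlin libraries lay below their partners, for a log2 change of -0.28 ± 0.06 and an adjusted p of 0.0117. CDT1, which loads the helicase at origins together with CDC6, had 32.4, 104 and 47.4 with Nutlin and peptide, against 49.2, 119 and 56.6 with DMSO and peptide. In water CDT1 had 35.3, 98.5 and 45.7 with Nutlin, against 41.1, 121 and 48.3 with DMSO, again lower in 6 of 6 pairs. CDT1 fell by 0.27 ± 0.06 (adjusted p 0.0179). MCM5 fell by 0.29, MCM7 by 0.23, MCM4 and MCM6 by 0.21, MCM3 by 0.20 and CDC6 by 0.17, with adjusted p of 0.0141 to 0.0486. Of the 24 alternatives, MCM5 was called in 17 and MCM7 in 16, but CDC6 only in 6 and MCM6 in 5. CDC45 had 0.02 ± 0.06 (adjusted p 0.854), the only one of the 9 that was not lower in all 6 pairs.

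Of the 3 nucleotide synthesis genes, both subunits of ribonucleotide reductase fell. RRM2 had 29.7, 298 and 98.4 scaled RPM with Nutlin and peptide, against 36.9, 347 and 124 with DMSO and peptide. In water RRM2 had 34.8, 264 and 83.5 with Nutlin, against 38.6, 342 and 99.7 with DMSO. All Nutlin libraries were below their partners. RRM2 fell by 0.27 ± 0.06 (adjusted p 0.0205) and RRM1 by 0.22 ± 0.06 (0.0349). Thymidylate synthase, TYMS, had -0.05 ± 0.06 (0.552).

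**Figure D4:**
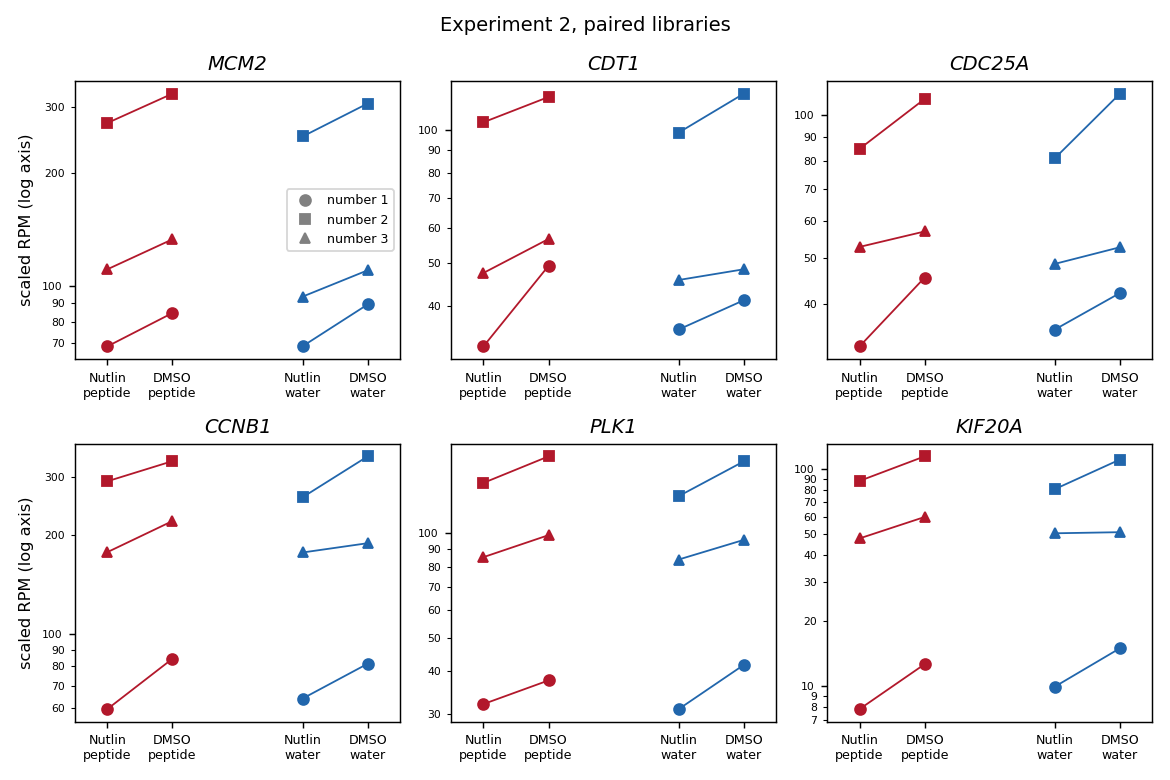
Scaled RPM (log axis) of 3 G1/S genes (top) and 3 G2/M genes (bottom) in the 12 libraries of experiment 2, Nutlin left of DMSO, with lines joining libraries of the same number (red peptide, blue water). Each of the 36 lines is lower at its Nutlin end, and number 2 lies above the other numbers in each panel.

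Of the mitotic cyclins and their regulators, 1 of 6 fell. CCNB1 had 59.4, 291 and 178 scaled RPM with Nutlin and peptide, against 84.4, 335 and 221 with DMSO and peptide. In water CCNB1 had 64.0, 260.4 and 177 with Nutlin, against 81.5, 346 and 189 with DMSO. It was lower in each of the 6 pairs, with a log2 change of -0.31 ± 0.06 and an adjusted p of 0.0114, the smallest of the 43. Its kinase partner CDK1 had -0.22 ± 0.07 (0.0640), cyclin A2 (CCNA2) -0.21 ± 0.07 (0.0536), the transcription factor FOXM1, which drives G2/M genes, -0.13 ± 0.06 (0.129), and CDC25C -0.08 ± 0.08 (0.522).

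Of the 8 mitotic kinase and checkpoint genes, 3 fell. PLK1 had 32.2, 139.9 and 85.4 scaled RPM with Nutlin and peptide, against 37.6, 167 and 98.8 with DMSO and peptide. In water PLK1 had 31.1, 128 and 84.0 with Nutlin, against 41.7, 161 and 95.8 with DMSO. PLK1 was lower in 6 of 6 pairs and fell by 0.27 ± 0.05 (adjusted p 0.0117). The centrosomal kinase AURKA fell by 0.26 ± 0.06 (0.0198) and CDC20 by 0.25 ± 0.05 (0.0152). The checkpoint kinase BUB1 had -0.13 ± 0.06 (0.129) and BUB1B -0.16 ± 0.06 (0.0818).

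Among the 8 centromere, kinesin and midzone genes, 2 fell, KIF20A and PRC1, which bundles midzone microtubules. KIF20A had 7.82, 87.9 and 47.8 scaled RPM with Nutlin and peptide, against 12.6, 114 and 60.0 with DMSO and peptide. In water KIF20A had 9.92, 80.5 and 50.4 with Nutlin, against 14.9, 110.2 and 51.0 with DMSO, nearly equal in number 3. Its log2 change of -0.40 ± 0.08 was the largest of the 43 (adjusted p 0.0127). PRC1 fell by 0.18 ± 0.06 (0.0449), and was called in 7 of the 24 alternatives. The kinetochore genes CENPE and CENPF had -0.06 ± 0.06 (0.489) and -0.11 ± 0.07 (0.295). Of the remaining 3, BIRC5 (survivin, of the chromosomal passenger complex) fell by 0.24 ± 0.07 (0.0335), while TOP2A had -0.18 ± 0.06 (0.0587) and MKI67, the Ki-67 proliferation marker, -0.14 ± 0.07 (0.167). Whether G1/S and G2/M genes differed in their change was not tested. Of the genes with a promoter window, an E2F word stood in 7 of the 15 that fell and 4 of the 17 that did not pass (4.56% of all windows). TTTGAA stood in 4 of the 15 and 10 of the 17 (9.97% of all windows). The split is mixed with phase: 13 of 18 G1/S but 7 of 25 G2/M genes fell. E2F words stood mostly in G1/S windows and TTTGAA in G2/M windows. A link of either word to the fall was not tested.

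In experiment 1 the same genes showed no such change. Fitted alone with the replicate block, experiment 1 gave 0 calls among the 43 members by limma. Of all genes it called 1 for Nutlin against DMSO in peptide. Averaged over peptide and water, the median log2 change of the members was 0.03, against -0.02 for all genes. CCNB1 had 159 and 143 scaled RPM with Nutlin and peptide, against 133 and 136 with DMSO and peptide. In water CCNB1 had 127 and 95.9 with Nutlin, against 126 and 119 with DMSO. MCM2 had 197 and 217 with Nutlin and peptide, against 182 and 199 with DMSO and peptide. In water MCM2 had 165 and 249 with Nutlin, against 169 and 174 with DMSO. RRM2 had 155 and 156 with Nutlin and peptide, against 126 and 132 with DMSO and peptide. RRM2, CCNB1 and MCM2 were higher with Nutlin in both peptide pairs of experiment 1. The median log2 difference of the members in these pairs was 0.11 and 0.06, and that of all genes 0.01 and -0.04. With 2 libraries per group, these values are given as description. The water libraries of RRM2 had 120.4 and 135 with Nutlin, against 122 and 120.1 with DMSO. PLK1 had 111 and 121 with Nutlin and peptide, against 104 and 110.5 with DMSO and peptide. Its log2 difference was 0.10 and 0.13 in the peptide pairs, and -0.09 and 0.62 in the water pairs. The log2 difference of CCNB1 in experiment 1 was 0.26 and 0.08 in the peptide pairs, and 0.02 and -0.31 in the water pairs. That of MCM2 was 0.12 and 0.12 in the peptide pairs, and -0.03 and 0.52 in the water pairs. The part of CDKN1A in these values was not tested.

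The test of the difference between the experiments' Nutlin changes called no member. In the blocked fit, averaged over peptide and water, 74 genes (0.464%) were called for the difference and 0 members, with 19 members at an unadjusted p under 0.05, against 27.7% of all genes, and the smallest adjusted p of a member just above the threshold. Taken singly with the block, the difference between experiments was called for 0 members in peptide (0.0376% of all genes) and 0 in water (0.0251%), with 13 members at an unadjusted p under 0.05 in peptide (12.9% of all genes) and 13 in water (28.5%). In the fit with 8 group means and no block, 1 gene and 0 members were called, and 0 members were at an unadjusted p under 0.05. The test of the Nutlin change in peptide against that in water called 0 genes and 0 members, and with the block 0 members were at an unadjusted p under 0.05, against 1.80% of all genes.

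The water pair numbered 2 of experiment 1, which holds the library that stood apart, showed the widest spread of member changes. They ran from -1.38 for CENPE to 0.94 for CDT1. CENPE had 27.4 scaled RPM in that Nutlin library, against 72.2 in its DMSO partner, and CDT1 had 145 against 75.3. Across the 43 members, the change in that pair was lower for longer rows, with a Spearman rho of -0.57, and across all 15958 genes rho was -0.51. In the peptide pairs of experiment 1, rho across the members was -0.38 for number 1 and -0.71 for number 2, and across all genes -0.24 and -0.45. In the first water pair it was 0.17 across the members and -0.03 across all genes. Over the pairs of experiment 2, rho was -0.10 to 0.54 across the members and -0.002 to 0.33 across all genes. A rho above 0 means that the change was lower for shorter rows. The part of span in the member changes of experiment 2 was not tested. These are correlations across genes of the same pair of libraries, which share depth and scaling, and are given as description. CDK1 (24.6 against 55.3) and CCNE2 (7.19 against 16.7) were low there at spans of 15.522 and 13.997 kb.

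**Figure D5:**
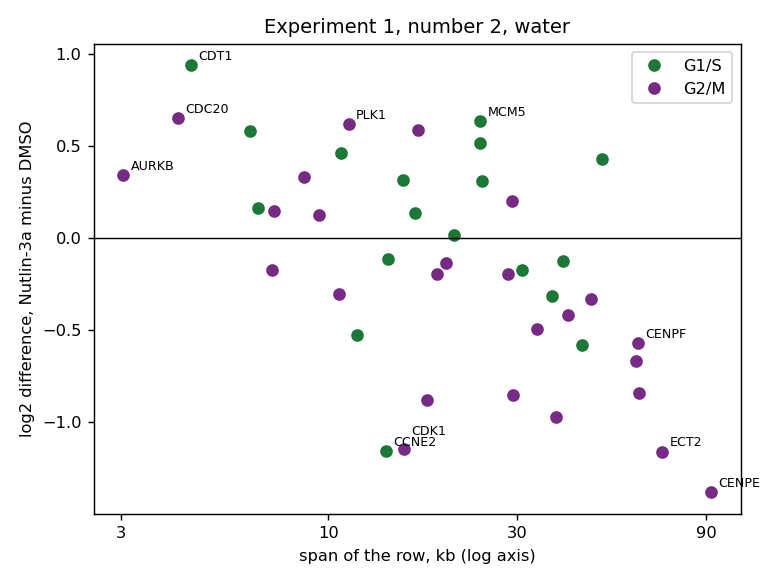
Log2 difference, Nutlin minus DMSO, of the 43 genes in the water pair numbered 2 of experiment 1, against the span of the gene's row in kb (log axis). Most genes under 10 kb lie above 0 and every gene over 50 kb lies below it.

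No member passed the test for the peptide itself. Peptide against water gave 0 called members and 0% of all genes called by limma with Nutlin (29 genes higher and 48 lower at an unadjusted p under 0.05) and 0 members and 0% with DMSO (9 higher and 6 lower). The median log2 change of the members was 0.08 with Nutlin, with 8 of 43 below 0, and 0.07 with DMSO, with 7 of 43 below 0. All genes had medians of 0.03 and 0.02. With Nutlin, 0 members were higher with peptide in 5 of 5 pairs, against 4.51% of all genes, and with DMSO 6 were, against 5.62%.

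Other genes of the same pathways, listed apart from the 43, are given for the paired fit of experiment 2, averaged over peptide and water. Of all genes tested in that fit, 7.41% were called lower and 4.07% higher, and the members' calls there rested on single libraries. Of 43 other G1/S genes, 10 fell and 1 rose, with a median log2 change of -0.12. The histone mRNA binding protein SLBP fell by 0.26 ± 0.05 (adjusted p 0.0117) and the replication initiation factor MCM10 by 0.21 ± 0.06 (0.0319), and WDR76 had -0.16 ± 0.06 (0.0909). Of 58 other G2/M genes, 17 fell and 0 rose, with a median of -0.16. DLGAP5, a spindle assembly factor, fell by 0.31 ± 0.07 (0.0156) and RACGAP1, of the centralspindlin complex, by 0.29 ± 0.06 (0.0117), while the cohesin protector shugoshin (SGOL1) had -0.18 ± 0.06 (0.0691).

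Of 12 subunits of the RB and DREAM complexes themselves, 1 fell, where 7.41% of all genes were called lower. It was the DP partner TFDP2, by 0.20 ± 0.06 (adjusted p 0.0356), and the median of the 12 was 0.01. The MuvB subunits LIN52 and LIN54 had 0.02 ± 0.10 (0.891) and -0.14 ± 0.07 (0.216). Of 15 upstream regulators, 14 were tested, 5 fell and 1 rose, against 7.41% of all genes lower and 4.07% higher. CDKN1A rose by 0.47 ± 0.10 (0.0173), and the p53-induced repressor E2F7 had 0.23 ± 0.09 (0.0987) and its paralog E2F8 -0.17 ± 0.06 (0.0790). The 5 that fell were the kinase inhibitors CDKN1B (by 0.38) and CDKN1C (by 0.26), the cyclins CCND1 (by 0.27) and CCND3 (by 0.21), and CDK4 (by 0.20). MDM2 rose by 0.69 ± 0.10 (0.00857) and the p53 target BTG2 by 0.63 ± 0.12 (0.0117). In number 3 of experiment 2 the log2 differences of the p53 targets were smaller than in number 2. In peptide they were -0.12 for CDKN1A, 0.37 for MDM2 and -0.02 for BTG2, beside a median of -0.19 for the members. In water they were 0.29 for CDKN1A, 0.17 for MDM2 and 0.26 for BTG2, beside a median of -0.11 for the members.

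Some members overlap another gene, and no source used here says whether counting took account of strand. PRC1 overlaps PRC1-AS1 on the opposite strand over 78.4% of its span, E2F2 overlaps LOC101928163 over 26.6%, TYMS overlaps ENOSF1 over 17.4% and FOXM1 overlaps LOC100507424 over 12.6%. CCNA2 overlaps EXOSC9 over 5.75% and CCNE2 overlaps INTS8 over 0.0714%, and MCM7 holds MIR25, MIR93 and MIR106B within its span on the same strand. Levels of these genes are uncertain to the extent that their reads could come from the partner.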

How the data were processed

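The files are 2 deposited tables, 1 per experiment, with 1 row per gene and 1 signal column per library. Per the submitters' processing notes, the tools were HISAT2, bedtools and limma and the build was hg38, with strand handling and versions not given in the sources used here. The authors' deposited signal equals reads per 1000000 divided by the row's end minus a thousandth of its start, which is not the unit the design assumed, so each value was multiplied back to RPM. Whole reads were recovered for all values at a tolerance of 0.001, and limma-voom on them without a block called 0 genes in each of the 5 comparisons.

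RPM were scaled between libraries by trimmed means (30% of ratios and 5% of abundances trimmed), filtered at a mean of 0.5 RPM and tested as log2(RPM + 0.5), which understates changes of low genes, with limma 3.58.1 in R 4.3.3 and Benjamini-Hochberg adjustment over all genes (called under 0.05). The model held the 4 conditions and the experiment. Labels give replicate numbers but no shared source: same-numbered libraries deviated together from their group means, with correlations of 0.286 to 0.587 over the 12 combinations of experiment 1, where only 2 libraries define each mean, and of 0.877 to 0.940 over the 18 of experiment 2, so the numbers were taken as pairs. Comparisons of Nutlin with DMSO and of peptide with water share libraries. Figures and counts used Python 3.11.15 and matplotlib 3.10.9.

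The 43 genes and all other lists were chosen with earlier results of these data known. Genes given in full were a panel of 25 members, members called with the experiment term or with the block over both experiments, and the 5 of each phase with the smallest p in the blocked water comparison. Outside the 43 they were the p53 targets and, of each other list, those the same rule named. E2F2, MCM4, MCM7, PRC1, CDC45, KIF23, AURKB, CDKN1B, CDKN1C, CCND1, CCND3, CDK4 and the epithelial markers with values were named after their values were seen. Alternatives covered the block, scaling, pseudocount, filter, voom, library weights, each experiment alone and each library left out. A result from the list of other G1/S genes is not reported here. The fits were also run on simulated data in which same-numbered libraries shared their means. That setting favours the block, so the run does not test the fits on the spread of these data.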

Additional observations from a re-analysis of the deposited data

Results flagged for a closer look

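In peptide, the median Nutlin change of the members was above 0 in each pair of experiment 1 and below 0 in each pair of experiment 2. This holds for the median and not for each gene: 6 members were lower in 5 of 5 peptide pairs, against 3.41% of all genes. For G2/M genes the median in number 2 of experiment 1 was only 0.009. The mean over pairs of the members' median log2 change was 0.08 in experiment 1 and -0.22 in experiment 2, a difference of 0.304 (experiment 1 minus experiment 2). For G1/S genes the means were 0.10 and -0.22, a difference of 0.321, and for G2/M genes 0.06 and -0.23, a difference of 0.292. These differences of medians were not tested. Gene by gene, limma with the replicate block called 0 of 43 members for this difference in peptide, with 13 at an unadjusted p under 0.05, against 12.9% of all genes, and a smallest adjusted p of 0.232.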

How the results depend on the processing

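The absence of calls in members over both experiments held under each alternative that kept both experiments. With the replicate block and limma-voom, genes called were 8 in water, 7 in peptide and 3 for peptide against water with Nutlin. With the block, library weights called 30 genes in water and 36 averaged, leaving out Nutlin water number 2 of experiment 1 called 3 in water, leaving out the 4 libraries numbered 2 of experiment 1 called 1 averaged, and leaving out those numbered 3 of experiment 2 called 11 in water, while no filter (without the block) called 1 in peptide. Alone, with or without the block, experiment 1 called 1 gene in peptide and 1 for peptide against water with each of Nutlin and DMSO. Its medians were 0.10 (G1/S, water), 0.10 (all members, peptide), 0.10 (G2/M, peptide), 0.0294 (all members, averaged), 0.11 (G1/S, averaged), -0.0210 (G2/M, averaged), 0.0246 (all members, peptide against water with DMSO) and 0.00503 (G2/M, the same). Experiment 2 gave 0.0839 for G2/M genes, peptide against water with DMSO, with or without the block. With the block it called 1805 genes and 20 members averaged, and 2 genes for peptide against water with Nutlin. In that paired fit, members called were 7 with a median of -0.0929 without further scaling (which moved the median of all genes to 0.07), and 0 each without the filter, without the block, without the libraries numbered 1 and without those numbered 2. Leaving out 1 library at a time gave 0 to 24 members called there and medians of -0.21 to -0.16. The cause of these changes was not tested, nor whether calls of members changed more than those of other genes. Over both experiments, without the block, leaving out 1 library gave 0 to 0 calls and medians of -0.38 to 0.17 in water (G1/S -0.36 to 0.21, G2/M -0.41 to 0.17), -0.38 to 0.20 in peptide (-0.35 to 0.19, -0.43 to 0.23), -0.25 to 0.0441 averaged (-0.22 to 0.0645, -0.30 to 0.0497), -0.21 to 0.36 for peptide against water with Nutlin (-0.21 to 0.31, -0.21 to 0.44) and -0.19 to 0.33 with DMSO (-0.19 to 0.37, -0.26 to 0.36). So without the block the direction of each median depended on single libraries. Of 480 values of the 20 called genes under alternatives to the paired fit, 0 changed sign and 268 passed. Of 3780 values of the 30 named members under alternatives to the test over both experiments, 397 had another sign. The lowest read count of a member, 80 in DMSO water number 1 of experiment 2, limits precision there.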
